A study of Rattus norvegicus with 16 samples.

Results

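In the uninjured (CON) discs collected 8 weeks after surgery, 1805 of 27064 cells carried none of the 4 class names that the deposited cell annotation uses, which are intervertebral disc (IVD), endothelial, myeloid and lymphoid. They were chosen by that column alone, as every cell of the 4 CON 8-week libraries whose final cell type entry gave no class. The authors gave the class names by marker genes, among them Cdh5, Flt1, Plvap and Ifitm3, so low levels of these genes in the named classes are not independent of the choice. The whole series holds 149272 cells. These unnamed cells made up 801 of 8176 cells in rat 5, 585 of 7744 in rat 6, 88 of 4696 in rat 7 and 331 of 6448 in rat 8. As shares of each library they were 9.80% (exact binomial 95% interval 9.16 to 10.5), 7.55% (6.98 to 8.17), 1.87% (1.51 to 2.30) and 5.13% (4.61 to 5.70), with a mean of 6.09% ± 3.39 (SD, n = 4). Rats 5 and 6 were high and rat 7 low, and the 4 intervals did not overlap. All intervals and floors given here cover counting error only.

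The study punctured the L4-5 and L5-6 discs of male Sprague-Dawley rats, 8 weeks old at surgery, with a 27G needle (lumbar disc puncture, LDP) and read single cells of the punctured and of the uninjured L2-3 and L3-4 discs of the same animals by droplet 3′ RNA sequencing. Each of the 16 libraries pooled 2 discs of 1 rat, and rats 1 to 4 were taken at 2 weeks and rats 5 to 8 at 8 weeks, 4 CON and 4 LDP libraries at each time. CON discs were therefore not from unoperated animals: each control shared its spine with 2 punctured discs. Rats of the 2 times were different animals that differed both in age and in time after surgery. The design cannot tell these apart, or either from a difference in library preparation between the times. Discs were digested with collagenase and pronase, so the cells are those that survived digestion. The CON 8-week libraries held 36448817 to 45893838 unique molecular identifiers (UMIs, counted molecules), and the unnamed cells were shallower than the IVD class, with medians of 2180, 2259, 3278 and 2172 UMIs for rats 5 to 8 against 5162, 6829, 7667 and 6217. No more than 44 cell barcodes (0.538%) were shared between a CON 8-week library and any other library, and 71 of the unnamed cells (3.93%) had a barcode that also occurred elsewhere in the series.

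The disc is largely avascular, and its blood vessels are confined to the outer annulus and to the border with the vertebral endplate, behind which lies bone marrow. Endothelial cells line those vessels and are held together by VE-cadherin, the product of Cdh5, while pericytes and smooth muscle cells wrap them and are marked by genes such as Rgs5. Marrow holds the precursors of red cells, granulocytes, monocytes and B lymphocytes.

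Over the 4 rats together, endothelial-like cells were the largest kind among the unnamed cells, and they were the only kind with more than 50 cells in each of the 4 rats. The unnamed cells and all cells named endothelial were clustered together over the 16 libraries, and clusters were named only from marker lists. Over all unnamed cells together Cdh5 stood at 409, 401, 832 and 779.8 CPM (counts of a gene after each cell is scaled to 1000000 UMIs, averaged over cells) in rats 5 to 8. Of the 1805 cells, 920 (51.0%) were endothelial-like, 282 erythroid-like, 243 B-lineage-like, 149 granulocyte-like and 64 monocyte-like. A further 68 cells carried endothelial together with mural (pericyte and smooth muscle) genes, 62 carried disc genes, 16 were other mixtures, and 1 cell fell in a mural-like cluster. The clusters were drawn on these genes, so the levels below describe them and are not tested.

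The make-up differed by rat. Endothelial-like cells numbered 315, 236, 78 and 291 in rats 5 to 8, which was 39.3%, 40.3%, 88.6% and 87.9% of the unnamed cells (mean 64.1% ± 28.0, n = 4). In rats 7 and 8 they were most of the unnamed cells, and in rats 5 and 6 they were the minority, outnumbered in rat 6 by the 243 B-lineage-like cells. Erythroid-like cells numbered 215, 65, 0 and 2, granulocyte-like cells 141, 4, 1 and 3, and monocyte-like cells 59, 5, 0 and 0. B-lineage-like cells came from rat 6 alone, where there were 243. The 0 found in rats 5, 7 and 8 allowed shares of such unnamed cells of up to 0.0367%, 0.0639% and 0.0465% of the library. These limits leave out cells named lymphoid, which numbered 635, 1590, 33 and 7 in rats 5 to 8. In rat 5 those had Cd79b, a B cell gene, at 661 CPM. The granulocyte-like, monocyte-like and B-lineage-like cells thus rested almost wholly on 1 library each, and a cluster of 1 library may be a feature of that library.

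**Figure D1:**
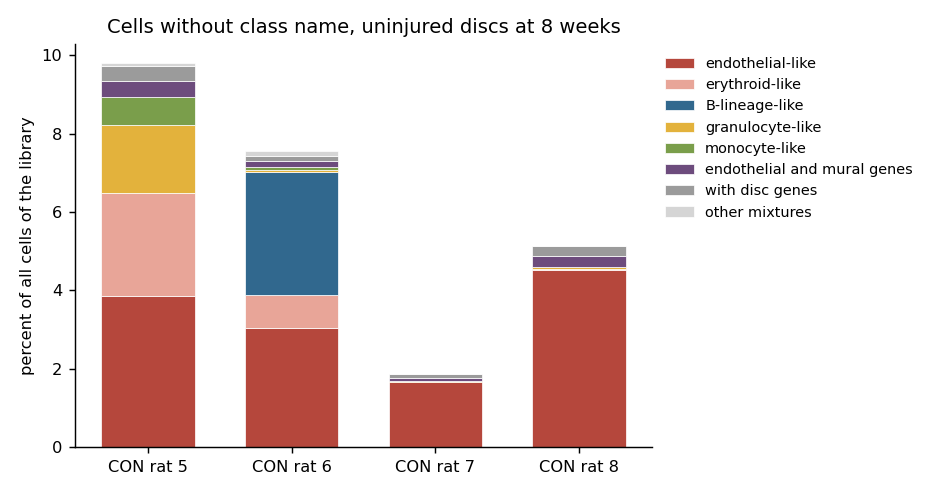
Stacked bars of the unnamed cells of each CON 8-week library, in percent of all cells of that library, coloured by the kind their cluster was given (1 mural-like cell of rat 8 is not drawn). The endothelial-like part is present in all 4 rats at 1.66% to 4.51%, whereas all but 6 of the erythroid-like, B-lineage-like, granulocyte-like and monocyte-like cells are in rats 5 and 6.

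Endothelial-like cells carried 14 of the 14 listed endothelial genes at 50 CPM or more and at 8 times the IVD class or more, limits that 1.78% of all 14420 genes listed met in these cells. The clusters were named by this list and these limits, so the count describes the naming. It holds for these cells as a whole. Taken singly over the cells of all groups, the endothelial-like clusters met the limits for 12 to 14 of the 14 genes. Cdh5 stood at 913, 913, 906 and 843 CPM in rats 5 to 8 (mean 894 ± 33.9), against 1.46 ± 1.01 in the IVD class, 1.55 in the myeloid and 0.646 in the lymphoid class. Flt1, a receptor of vascular endothelial growth factor, stood at 1241, 1097, 1137 and 980.4 CPM, against a mean of 7.32 in the IVD class. The 4 rats lay close together for both genes and far above every named class. Plvap, which forms the diaphragms of vessel pores, was at 1323, 867, 1109 and 917 CPM against 2.39 in the IVD class, and Ifitm3, an interferon-inducible membrane protein that the study used as an endothelial marker, was at 1678, 1423, 1506 and 1751 against 96.4.

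By share of cells, given here as the mean of the shares of the 4 rats, Cdh5 was seen in 80.3% of endothelial-like cells with all UMIs and in 54.2% after each cell was thinned to 1000 UMIs, which left out 36 of the 920 cells and 177 of the 22657 IVD cells as too shallow. In the IVD class, which should lack it and was deeper, the shares were 0.368% and 0.113%. Plvap was seen in 71.1% and 52.5% of endothelial-like cells against 0.519% and 0.198% of IVD cells. Further vessel genes had the same pattern. Emcn, a mucin-like surface protein of small vessels and veins, had a mean of 527 ± 91.9 CPM against 0.929 in the IVD class, and Ptprb, the phosphatase that acts on the Tie2 receptor, had 306 ± 51.7 against 0.677. Kdr, the main receptor for vascular endothelial growth factor, was at 525, 277, 376 and 285 CPM, with rat 5 the highest. Sele, an adhesion molecule of activated endothelium that binds leukocytes, was the most uneven among them, at 558, 681, 274 and 541 CPM with rat 7 the lowest.

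Pericyte markers were low in the endothelial-like cells, while disc and red cell genes were seen in part of them. Rgs5, the pericyte marker, was at 5.01, 4.32, 0 and 9.17 CPM (mean 4.62 ± 3.75), against 8.54 ± 3.08 in the IVD class. The 11 pericyte genes summed to 94.2 to 162 CPM over the rats against 965 to 1214 in the IVD class, a list in which several genes are also made by disc cells. Col2a1, the fibrillar collagen of cartilage and nucleus, was at 112, 126, 59.5 and 57.4 CPM against 2398 ± 684 in the IVD class. Comp, a matrix protein of cartilage and disc, was at 286, 267, 246 and 216 CPM and seen in 41.7% of the cells, against 4919 ± 842 CPM and 95.4% in the IVD class. The alpha globin gene Hba-a2 was seen in 49.3% of endothelial-like and 50.6% of IVD cells with all UMIs as means of the 4 rats, and in 28.7% and 17.4% at 1000 UMIs, and its level followed the library in both, from 2123 and 2782 CPM in rat 5 to 11.3 and 7.04 in rat 8. Since disc cells should lack this gene, its UMIs in endothelial-like cells are not read as expression, and where they came from was not tested.

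**Figure D2:**
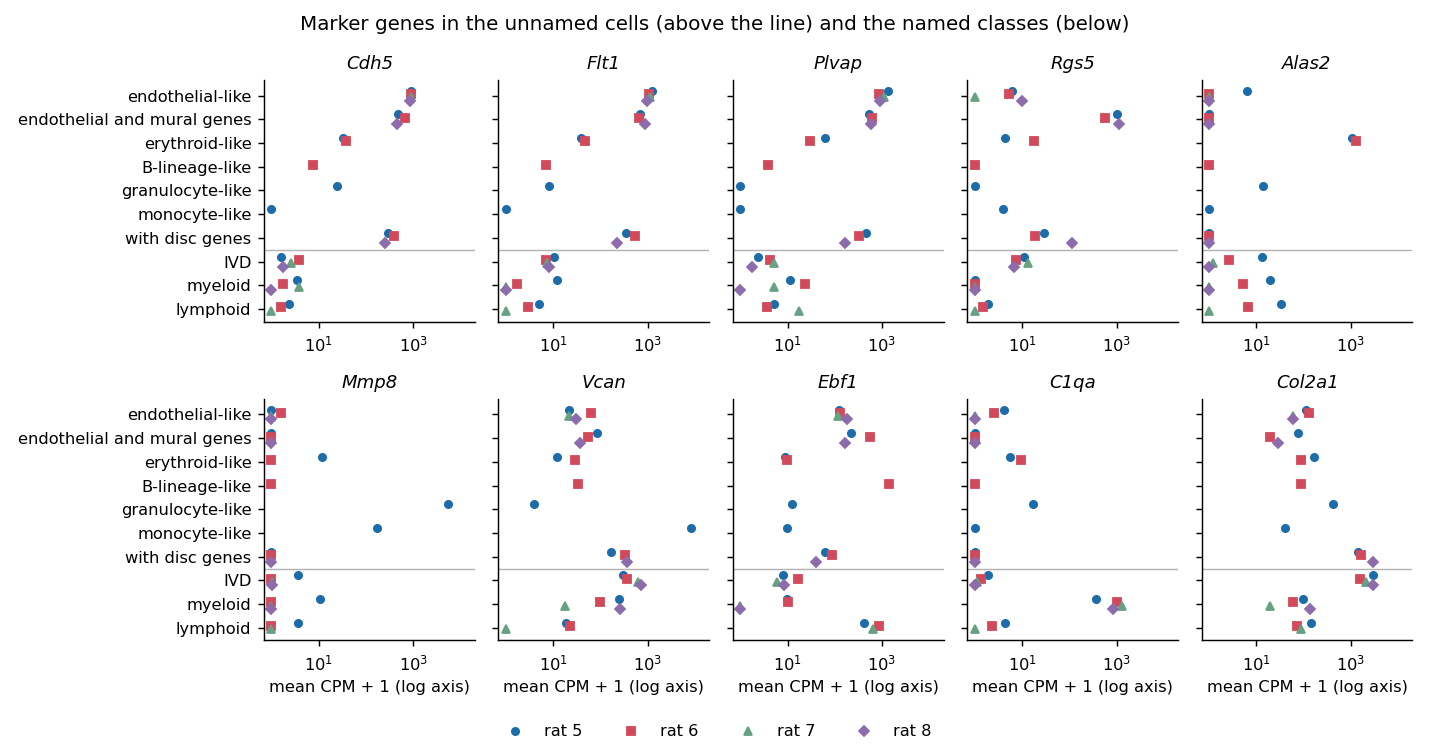
Mean CPM + 1 on a log axis of 10 marker genes in the kinds of unnamed cells (above the grey line) and in the named classes (below it), 1 symbol per rat with at least 10 cells. Cdh5, Flt1 and Plvap are high in the endothelial-like cells of all 4 rats and near 0 in the named classes, and Rgs5 is highest in the cells with endothelial and mural genes, with a mean of 905 CPM against 52.7 in the cells with disc genes.

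Endothelial-like cells lacked a class name in the CON 8-week libraries and carried one in the other 3 groups. The CON 8-week libraries held 0 cells named endothelial, so their 920 endothelial-like cells, clustered from unnamed and endothelial-named cells, could carry no name. In the same clusters 502 of 503 were named endothelial at LDP 8 weeks, 2990 of 2994 at CON 2 weeks and 2995 of 2996 at LDP 2 weeks. A count that does not depend on the clusters or on names took any cell with UMIs of at least 2 of Cdh5, Flt1, Plvap and Egfl7 at 1000 UMIs. At CON 8 weeks 635 cells met this rule, of which 618 (97.3%) were unnamed and 17 were of the IVD class. At LDP 8 weeks 334 cells met it, of which 329 (98.5%) were named endothelial and 0 were unnamed. At CON 2 weeks 2658 cells met it, of which 78.4% were named endothelial, 372 cells were of the IVD class and 198 (7.45%) were unnamed. In the authors' own numbered clusters, 905 of the 920 cells (98.4%) lay in cluster 2, which also held 8647 cells (38.2%) of the IVD class. Of the erythroid-like cells 267 (94.7%) and of the B-lineage-like cells 243 (100%) lay in cluster 3, together with 2262 (99.9%) of the lymphoid class. The files do not say how cells of 1 numbered cluster came to differ in class.

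The 920 endothelial-like cells fell in 8 clusters that also held the named endothelial cells of the other groups. By the same limits, 4 of 6 listed venous genes, 2 of 7 arterial, 2 of 4 capillary and 0 of 4 sinusoidal or lymphatic genes stood out over the IVD class in these cells as a whole, beside the 1.78% of all genes listed. Cluster 0 was the largest, with 87, 42, 25 and 83 cells in rats 5 to 8, followed by cluster 1 with 44, 77, 20 and 45 and cluster 3 with 57, 53, 5 and 41. Cluster 3 had the adhesion genes of veins and activated vessels at a mean over rats with at least 10 cells of 1521 CPM for Sele, 779 for Selp (P-selectin) and 1193 for Icam1. Cluster 2 had the highest means among the 8 for Plvap, at 1874 CPM, and Emcn, at 982. Its cells came from 49, 19, 2 and 43 cells of rats 5 to 8, so rat 7 gave almost none.

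Cluster 6, with 6, 18, 14 and 27 cells, stood apart from these. Cldn5, a tight junction protein of sealed vessels, was at 740.1 CPM there and at 0 in clusters 2, 3 and 5, while Plvap was at 69.7 CPM and Kdr at 45.3. Gja4, a connexin of arterial endothelium, was at 73.1 CPM in cluster 6 and 63.6 in cluster 14, and at 7.37 or less in the other 6 clusters. Egfl7, a secreted protein of endothelial cells, reached 1097 CPM in cluster 6. Vwf, von Willebrand factor, was at 0 in it and at 229.8 in cluster 2.

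Cluster 5, of 65 cells, was uneven between rats. Dll4, the Notch ligand of arterial and sprouting endothelium, was at 177, 402 and 939 CPM there in rats 5, 6 and 7. Over all 16 libraries cluster 5 was led by the lymphatic genes Ccl21 and Mmrn1, with log2 differences from the other clustered cells of 4.61 and 3.32. Ccl21 was not listed at CON 8 weeks and entered its difference as 0 there, and Mmrn1 was at 0 CPM in rats 5, 6 and 7. Cluster 7, also of 65 cells, came from rats 5 (34 cells) and 8 (31 cells) and from no cell of rats 6 and 7. It held the chemokine Cxcl12 at 3008 CPM, Rgcc at 1561, the water channel gene Aqp1 at 2225 and Kdr at 1052, each the highest of the 8 clusters. Car4, a carbonic anhydrase of capillary endothelium, was at 240.4 CPM in cluster 7 and at 4.25 or less in the others. The cells of cluster 7 were the shallowest, with a median of 1150.5 UMIs. The 8 listed genes that respond to tissue digestion, such as Jun, summed to 20282 CPM there against 2504 in cluster 6. Over all endothelial-like cells they summed to 7059 to 12135 CPM against 2038 to 3212 in the IVD class, and their part in the differences between clusters was not tested.

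**Figure D3:**
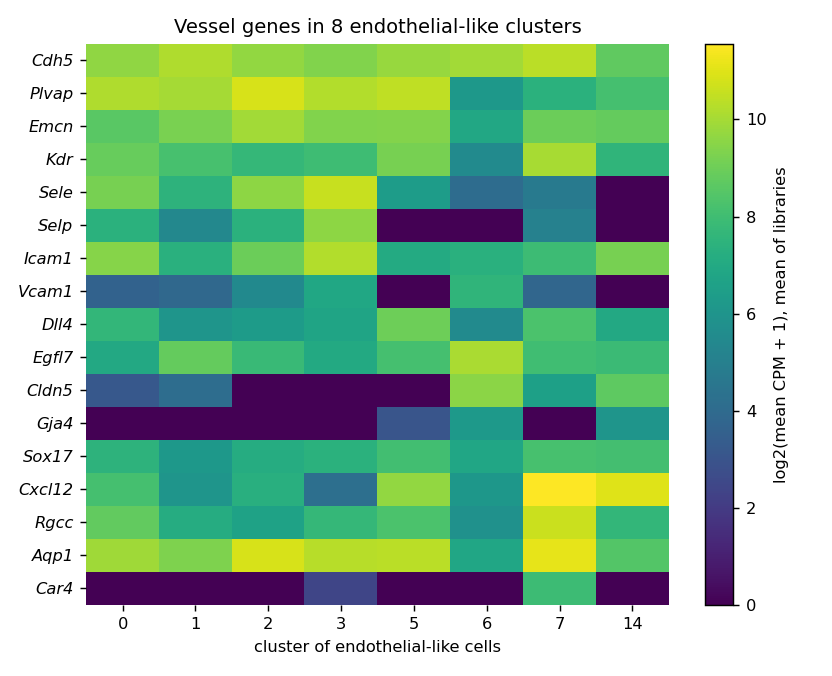
Heat map of log2(mean CPM + 1) of 17 vessel genes in the 8 endothelial-like clusters of the CON 8-week cells, as the mean of the rats with at least 10 cells of a cluster. Cluster 3 is bright for Sele, Selp and Icam1, cluster 6 for Cldn5 and Egfl7 with little Plvap, and cluster 7 for Cxcl12, Rgcc, Aqp1 and Car4.

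The 68 cells with endothelial and mural genes (33, 12, 4 and 19 in rats 5 to 8) belonged to 1 cluster that passed the marker test for both lists and was therefore given neither name. Rgs5 stood at 1041, 566 and 1109 CPM in rats 5, 6 and 8, and Cdh5 at 474, 678 and 459. Both genes were seen together in 52 of the 68 cells, against 4 of the 920 endothelial-like cells. Abcc9, a potassium channel subunit of pericytes, was at 354 ± 77.3 CPM (n = 3 rats), against 1.67 in the IVD class, and Myh11, the smooth muscle myosin, at 201 ± 11.6 against 6.83. Adamts4, an aggrecan-cleaving protease, was at 3274, 3150 and 3425 CPM, against 408 in endothelial-like cells and 29.9 in the IVD class, and the cytokine Il6 was at 593, 755 and 845 against 47.6 and 3.38. These cells were deep, with a median of 6599 UMIs against 2215 for endothelial-like cells, and 0 of them were in the top 5% of Scrublet doublet scores. The calls of that tool were too few to be used here, so these scores cannot tell whether the cells were doublets. That was not tested in another way. As shares of the library they were 0.0852% to 0.404% at CON 8 weeks and 0.118% to 0.360% at LDP 8 weeks. At 2 weeks they were 0.796% to 1.26% in CON and 0.115% to 0.521% in LDP.

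The 62 cells with disc genes had Col2a1 at 1396, 1614 and 2889 CPM and Acan, the main proteoglycan of disc and cartilage, at 1846, 1757 and 1959 in rats 5, 6 and 8, levels near those of the IVD class (means of 2398 and 1936). They carried Cdh5 as well, at 289, 392 and 251 CPM. Of these cells 48 (77.4%) were in the top 5% of Scrublet doublet scores of their library, a tool whose own calls were too few to be used here, against 1.63% of the endothelial-like cells and 6.00% of the IVD class, and their median was 7419 UMIs. Cells of such clusters were 0.213% of a library on average at CON 8 weeks, 0.180% at LDP 8 weeks, 0.589% at CON 2 weeks and 0.841% at LDP 2 weeks.

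Erythroid-like cells showed the genes of red cell precursors. Hba-a2 was at 160108 and 193084 CPM in rats 5 and 6, Ahsp, the chaperone of alpha globin, at 11601 and 10508, and Alas2, the first enzyme of heme synthesis in red cells, at 1050 and 1260. In the IVD class of the same rats Ahsp was at 39.7 and 7.60 CPM. The proliferation gene Mki67 was at 2169 and 2296 CPM, against 414 and 412 in the lymphoid class and 12.2 and 6.92 in the IVD class, and the 9 cycling genes summed to 5123 to 5561 CPM against 49.8 to 82.9 in the IVD class. Cells came in 2 clusters. The larger, of 224 cells, had Klf1, the erythroid transcription factor, at 714 and 636 CPM, whereas the smaller, of 58 cells, had Alas2 at 1583 and 1744 and Tmcc2 at 2065 and 2777.

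The 243 B-lineage-like cells of rat 6 had the genes that the named lymphoid cells of that rat also had. Cd79b, a chain of the B cell receptor complex, was at 695 CPM against 745 in the 1590 lymphoid cells of rat 6, Blnk, its adaptor, at 1029 against 875, and Rag1, which cuts the receptor genes in precursors, at 891 against 1161. The T cell gene Cd3g was at 18.8 and 7.11 CPM. What set them apart were other genes. Klhl6, which acts in B cell receptor signalling, was at 894 CPM against 191 in the lymphoid class of rat 6, Lig4, the DNA ligase that joins cut receptor genes, at 386 against 68.9, Ptprc (CD45) at 296 against 102, Pax5, the B cell identity factor, at 127 against 27.0, and Cd38 at 121 against 14.1. Their median depth was 1714 UMIs against 2344 in the lymphoid class of rat 6, and their median mitochondrial share was 7.67% against 4.48%. The part of depth and mitochondrial share in these differences was not tested. With 1 library there is no replicate for any of these differences.

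Granulocyte-like cells (141 of 149 from rat 5) had S100a8 and S100a9, the calprotectin pair, at 73359 and 73373 CPM in rat 5, against 140 and 131 in the myeloid class of the same rat. They fell in 2 clusters that shared part of their genes, with levels from rat 5 alone. The cluster of 80 cells had Ngp at 31074 and Camp (cathelicidin) at 7167 CPM, and the cluster of 69 cells had Stfa2 at 2489. Mmp8, the neutrophil collagenase, was high in both, at 4229 and 7034 CPM, as was Olfm4, at 4094 and 2483. The 59 monocyte-like cells of rat 5 had Lyz2 at 9723 CPM, Cd14 at 2018 and Vcan, a matrix proteoglycan made by monocytes, at 8117, where the myeloid class of that rat had 1397, 133 and 248. Fcnb, a ficolin of myeloid precursors, was at 745 CPM against 13.5. Of the 12 listed macrophage and monocyte genes 8 met the naming limits in these cells, Csf1r (252 CPM) among them, and 4 were at 0, which were C1qa, C1qb, C1qc and Mrc1. Their cluster also met the limits for 3 of 6 listed dendritic and 4 of 15 granulocyte genes. The dendritic list thus passed as well, but by the rule used it blocked no name. C1qa and Mrc1 were at 0 CPM in these 59 cells, which allows a share of cells with a UMI of up to 5.08% and sets no limit on expression below detection, whereas the myeloid class of rat 5 had them at 362 and 60.8.

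Cells of other kinds were looked for by counting cells with UMIs of at least 5 markers of a list. For Schwann cells 0 of the 1805 unnamed cells passed, which allows a share of up to 0.166%, while 20 cells of the IVD class did. For pericytes 40 unnamed cells (2.22%) passed beside 75 of the IVD class (0.331%), and for smooth muscle 5 beside 28. For erythroid genes 281 unnamed cells passed and 188 of the IVD class, 167 of them in rat 5, the library in which Hba-a2 was also highest across the IVD class. IVD cells were deeper and make several of the pericyte genes themselves, and no background share was measured for these counts, so they are not read as cells of another kind.

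The share of unnamed cells did not separate the groups. It was 1.61%, 28.3%, 4.06% and 0.354% in the LDP 8-week libraries of rats 5 to 8 (mean 8.57% ± 13.2), 2.48 percentage points above CON, with a two-sided exact permutation p = 0.971. Rat 6 set that direction, and without it CON was higher by 3.59 points (exact permutation p = 0.200). In rat 6 at LDP 8 weeks, Schwann-like cells were 26.2% of the library. The CON 2-week libraries had 6.19%, 2.57%, 3.21% and 2.46% unnamed cells (mean 3.61% ± 1.75), 2.48 points below CON 8 weeks (exact permutation p = 0.257). That difference was 1.25 points without CON 8-week rat 5 and 3.89 without rat 7, with exact permutation p-values of 0.486 and 0.0857. In both comparisons the ranges overlapped.

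The endothelial-like class was drawn jointly over the libraries, but from cells with no name or an endothelial name alone. Cells that carried the IVD name and endothelial genes were outside it. Endothelial-like cells were 3.85%, 3.05%, 1.66% and 4.51% of the CON 8-week libraries (mean 3.27% ± 1.23), against 2.75%, 1.85%, 1.24% and 1.62% at LDP 8 weeks (mean 1.87% ± 0.638). CON was higher in 4 of 4 rats, by 1.40 points on average and by 0.908 without rat 8. The exact permutation test gave p = 0.0857, and 0.429 after adjustment over the 5 kinds, so the difference did not pass. Exact sign flips within rats gave p = 0.125, the smallest that 4 pairs allow.

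Against CON 2 weeks the groups did not overlap in the endothelial-like share. These groups are different rats, so age, time after surgery and library preparation cannot be told apart. The CON 2-week libraries had 8.04%, 8.44%, 4.76% and 8.03% (mean 7.32% ± 1.72), and no CON 8-week library reached the lowest of them, rat 3. In that library 296 of the 897 cells that met the rule of at least 2 of 4 endothelial genes carried the IVD name and so were not clustered. By that rule over cells of any name, the CON 2-week libraries had 5.72%, 7.08%, 6.66% and 6.26% and the CON 8-week libraries 2.68%, 2.27%, 1.33% and 2.88%, a difference of -4.14 points (exact permutation p = 0.0286). For the clustered cells the difference was 4.05 points with an exact permutation p of 0.0286, the smallest that 4 against 4 libraries allow, and 0.143 after adjustment over the 5 kinds, so it did not pass once adjusted. A single kind at the smallest p cannot pass this adjustment, whatever the size of its difference. Leaving out any 1 CON 8-week library gave p = 0.0571 by the exact permutation test, with differences between 3.51 and 4.46 points, and the groups still did not overlap. Leaving out any 1 CON 2-week library gave an exact permutation p of 0.0286. Clusters 0 and 1 were the largest in each group, with 25.8% and 20.2% of the endothelial-like cells at CON 8 weeks, 22.2% and 21.0% at CON 2 weeks and 32.2% and 28.2% at LDP 8 weeks. For the erythroid-like, B-lineage-like, granulocyte-like and monocyte-like shares, exact permutation p-values against LDP 8 weeks or CON 2 weeks lay between 0.257 and 1, and between 0.571 and 1 after adjustment. Those 4 shares count only cells with no name or an endothelial name, and similar cells that carry a myeloid or lymphoid name are outside them.

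**Figure D4:**
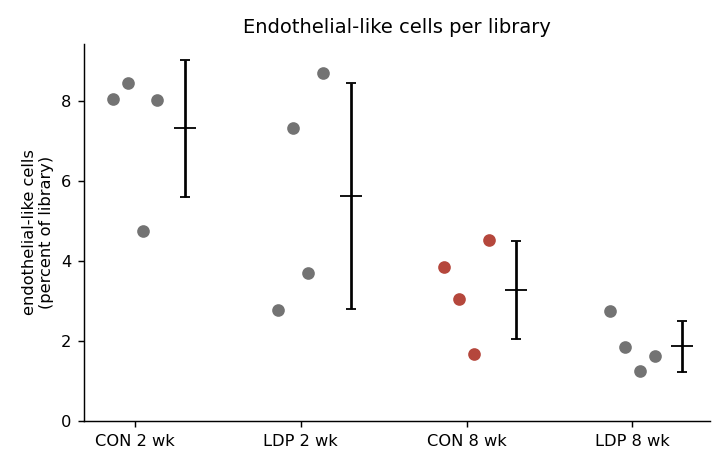
Endothelial-like cells in percent of all cells of each library (points, 4 rats per group) with mean and SD (bar with whiskers) for the 4 groups. The CON 8-week points, between 1.66% and 4.51%, lie below all 4 CON 2-week points and overlap the LDP 8-week points.

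Between CON and LDP at 8 weeks, no gene of the endothelial-like cells passed the test. The mean CPM of each library was compared with limma on the log2(mean CPM + 1) scale, which understates changes of low genes, with the rat as a block, and 0 of 7380 genes (0% of those tested) had a Benjamini-Hochberg adjusted p under 0.05, while 869 (11.8%) had an unadjusted p under 0.05. By edgeR 0 passed and 424 had an unadjusted p under 0.05. Without rat 7, 2 genes were higher in CON. The 3 genes with the smallest p are given as values. Isg20l2, a ribosome biogenesis exonuclease, stood at 15.6, 39.8, 34.8 and 32.3 CPM in CON rats 5 to 8 and at 4.60, 8.28, 9.38 and 1.55 in LDP, a log2 difference of 2.30 ± 0.40 (SE) with a limma adjusted p = 0.263. These groups did not overlap, as for 2.55% of all genes tested that were higher and 0.745% that were lower in CON. Apln, the apelin peptide of growing vessels, had 26.4, 55.4, 77.7 and 25.6 against 17.9, 9.29, 27.4 and 2.89 CPM, higher in CON in 4 of 4 rats (log2 difference 1.81 ± 0.37, limma adjusted p = 0.263). AABR07028488.1, a gene known by a clone name, had 10.0, 11.6, 31.7 and 11.5 against 0, 4.18, 0 and 1.70 CPM (2.99 ± 0.61, limma adjusted p = 0.263). The LDP libraries of rats 5 to 8 held 189, 41, 126 and 147 endothelial-like cells, with 661937, 219221, 291763 and 342637 UMIs in all. LDP values of 0 or a few CPM therefore lie near the detection floor, and the size of these differences is uncertain. In the IVD class the 3 genes differed by 0.59, 0.17 and 0.45.

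The 4 endothelial markers of the study did not pass between CON and LDP. The cells compared were chosen by endothelial genes, so the lack of a call for such genes is not independent of that choice. Cdh5 had a log2 difference of 0.13 ± 0.14 (limma adjusted p = 0.717), Flt1 of 0.09 ± 0.17, Plvap of 0.23 ± 0.17 and Ifitm3 of -0.07 ± 0.14. Of the 14 endothelial genes tested 0 passed, with a median log2 difference of 0.08 beside a median of 0.17 over all genes tested. Of the arterial, venous and capillary genes, 6, 6 and 3 were tested and 0 passed, with median differences of 0.51, 0.18 and 0.16. The disc and cartilage genes had a median difference of 1.31, with 0 of 9 past the test, where the IVD class itself had 0.20. The outer annulus and tendon genes had 1.38, with 0 of 6 past the test, where the IVD class had 1.21. The fibroblast genes had 1.20, with 0 of 7 past the test, where the IVD class had 0.80.

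Between CON 8 weeks and CON 2 weeks, 19 of 6790 genes passed in endothelial-like cells (0.28% of those tested, limma), of which 7 were higher (0.103%) and 12 lower (0.177%) at 8 weeks, and 957 (14.1%) had an unadjusted p under 0.05. Groups did not overlap for 1.22% of all genes tested that were higher and 7.35% that were lower. The 2 sides were unequal in material. CON 2-week libraries held 329 to 1076 endothelial-like cells with 1208670 to 2339330 UMIs in all. CON 8-week libraries held 78 to 315 with 258503 to 809142. The part of this gap in the excess of lower genes was not tested. As for the shares, age, time after surgery and library preparation cannot be told apart here. The lower genes included 4 collagen genes. Col1a1, fibrillar collagen of the annulus, stood at 692, 727, 1003 and 757 CPM in CON 2-week rats 1 to 4. In CON 8-week rats 5 to 8 it stood at 103, 320, 66.7 and 34.1, with no overlap (log2 difference -3.06 ± 0.48, limma adjusted p = 0.0219). Col2a1 stood at 662, 254, 1260 and 1040 CPM at 2 weeks and at 112, 126, 59.5 and 57.4 at 8 weeks (-3.03 ± 0.42, limma adjusted p = 0.0106). Col3a1 stood at 150, 145, 251 and 198 at 2 weeks and at 47.1, 52.5, 10.3 and 28.8 at 8 weeks (-2.58 ± 0.40). Rcn3 and Aebp1, both of which act in collagen production or assembly, differed by -2.39 ± 0.41 and -2.33 ± 0.39. Rcn3 was under 10 CPM in all 4 CON 8-week libraries and Aebp1 in 2 of them, so Rcn3 entered the test through the 4 CON 2-week libraries alone, where it is high. Without the filter on low values neither passed (limma adjusted p = 0.0602 and 0.0546). The remaining 7 lower genes were Col6a2, Bgn (biglycan), Comp, Sparc, Taok2, Os9 and Golga4, with differences between -1.99 and -0.89. Of the disc and cartilage list 2 of 8 genes tested were lower and 0 higher (median -1.31), and of the fibroblast list 2 of 7 were lower and 0 higher (median -0.69).

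In the IVD class of the same libraries the log2 differences were -2.26 for Col1a1, -2.04 for Col2a1 and -1.71 for Col3a1. Over the 19 genes the direction in the IVD class was that of the endothelial-like cells. How far RNA from disc cells entered the endothelial-like values was not tested.

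The 7 higher genes included the ribosomal protein genes Rps21, Rpl31 and Rps28. Rps21 rose from 864, 827, 764 and 868 CPM to 1787, 1342, 1311 and 1704 (log2 difference 0.87 ± 0.13, limma adjusted p = 0.0174), and Rpl31 from 739, 831, 852 and 830.5 to 1302, 1119, 1396 and 1269 (0.64 ± 0.11, limma adjusted p = 0.0415). Rps28 was higher by 0.63 ± 0.11. A further 3, LOC100360781 (0.92 ± 0.12), LOC108352650 (0.89 ± 0.11) and LOC690468 (0.82 ± 0.15), had no entry in the gene table used here. For Rps21 the IVD class differed by 0.81 and for Rpl31 by 0.85. The median over all genes tested was -0.20. Of the 14 endothelial genes 0 passed, with a median of -0.27, in cells that were chosen by these genes. Of the arterial, venous and capillary genes 6, 6 and 3 were tested, and 0 passed.

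The number of calls depended on single libraries: it was 3 without CON 2-week rat 3, 4 without CON 8-week rat 8, 6 without CON 8-week rat 5, 11 without CON 2-week rat 1, 13 without CON 8-week rat 7, 14 without CON 8-week rat 6, 18 without CON 2-week rat 2 and 22 without CON 2-week rat 4. Of the last 2 counts 12 and 14 genes were among the 19. By edgeR 27 genes passed, 20 higher and 7 lower, of which 14 were among the 19. Col1a1 was not among those 14 (edgeR adjusted p = 0.0697), and it also lost its call in limma without CON 2-week rat 3, CON 8-week rat 5 or CON 8-week rat 8. Col2a1 and Col3a1 lost theirs without CON 2-week rat 3 or CON 8-week rat 8, and Rps21 without CON 2-week rat 3, CON 8-week rat 5 or CON 8-week rat 8. Rpl31, Rcn3, Aebp1 and LOC690468 each lost theirs in 6 to 9 alternatives, and Rcn3 was not tested in 4 more, without each CON 2-week library, since it then fell under the filter.

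**Figure D5:**
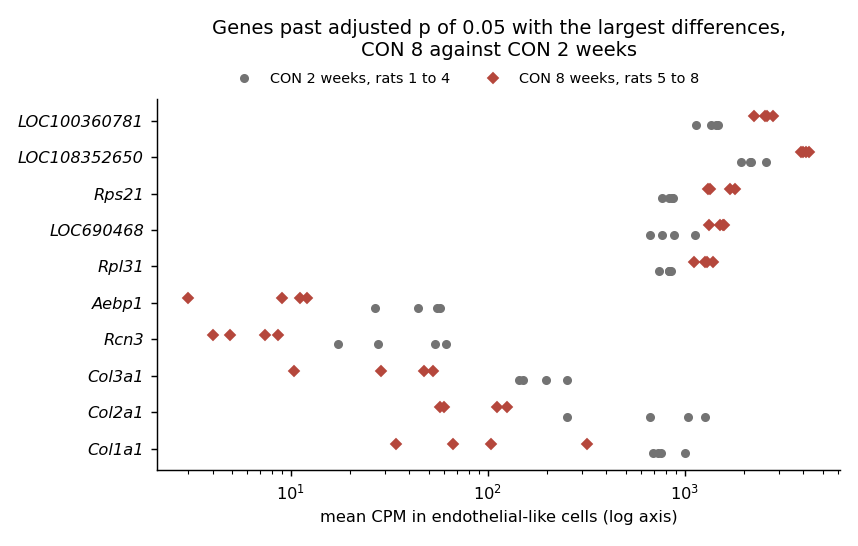
Mean CPM on a log axis of the 5 genes with the largest difference in each direction among the 19 past the test in the endothelial-like cells of the 4 CON 2-week (grey) and 4 CON 8-week (red) libraries, ordered by log2 difference. The 5 lower genes, 3 of them collagens, lie to the left at 8 weeks and the 5 higher genes to the right. Groups that do not overlap were required of the genes drawn, and all 19 met this.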

How the data were processed

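Libraries were made with the 10x Genomics 3′ kit from cells of pooled lumbar discs, 1 library per rat and disc group. Per the methods of the study, cells were filtered in Partek Flow on mitochondrial share, gene number and UMI count, and clustered by K-means in each group apart. The rn6 build comes from the submitters' processing notes, and the aligner and the handling of doublets and free RNA are not given in the sources used here. In the CON 8-week files, cells held 498 to 3000 genes and 662 to 23378 UMIs. Each deposited value is the log2 of CPM + 1 of a gene in a cell, beside the deposited total as an estimated count, the deposited count of genes, and the deposited percent of mitochondrial and ribosomal reads. UMIs recovered from the log2 values were whole within 0.02 for over 99% of values above 0 (99.38% in the first library). Genes listed differ by group, 14420 at CON 8 weeks and 13596 in all 4 groups. The gene tests took only genes listed in all 4 groups, and CON 8-week levels are given only for genes listed there. In the joint clustering, the naming of clusters and their leading genes over all 16 libraries, a gene not listed in a group entered as 0. The effect of this on the clusters was not tested.

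Unnamed and named endothelial cells of 16 libraries were scaled to 10000 UMIs and clustered (2000 variable genes, 30 components, 15 neighbours, Leiden resolution 1.0, scanpy 1.11.5, leidenalg 0.10.2) with no batch correction. A marker list passed if at least 3 and 50% of its genes reached 50 CPM and 8 times the IVD class. A cluster took the name of such a list if disc genes were below 0.25 of the IVD class and no second list blocked it. A second list with at least 3 such genes blocked a name at a share lower than 50%. Thus 4 of 11 B lineage genes left cluster 26, with 12 of 14 endothelial genes, without a name. The dendritic list blocked no name, and the pericyte and smooth muscle lists did not block each other. These limits were set after the clusters were seen. Scrublet, as run in scanpy at an expected rate of 0.06, marked 55 of 27064 cells (0.203%) and was taken not to have worked, so no cell was removed. Levels are means over cells of rats with at least 10 cells of a kind.

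Shares of libraries were compared by two-sided exact permutation tests (70 splits). Gene tests took the mean CPM of libraries with at least 20 endothelial-like cells, genes at 10 CPM or more in at least 4 libraries and a pseudocount of 1 CPM (limma 3.58.1, eBayes with trend, R 4.3.3). All 16 libraries entered the CON against LDP fit with the rat as block, since CON and LDP discs of 1 number come from the same animal. The correlation of deviations from group means within the 8-week pairs was 0.09, 0.02, -0.05 and -0.0014. The tool edgeR 4.0.16 was run on summed recovered UMIs as an alternative. On simulated counts of the CON 8 against CON 2-week comparison (6628 genes), limma recovered 63% of 100 genes changed by 1 on the log2 scale and 99% of 100 changed by 2, and 2.41% of its calls were false. For CON against LDP at 8 weeks (7143 genes) it recovered 61% and 99%, with 8.57% of calls false, above the 5% aimed at. The changed genes were drawn from those with a mean of at least 50 CPM, so these shares do not cover lower genes that met the filter of 10 CPM. No difference between rats was simulated. The erythroid-like cells were not fitted, since no more than 2 CON 8-week libraries held 20 of them.

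Named genes were the class markers, for each cluster up to 10 genes with the largest difference from the highest named class together with list members, and for each test up to 5 genes per direction. Other genes of the 19, the vessel genes compared between clusters, and Jun and Rps28 were added after their values were seen, and some genes are not reported here. The members and the gene lists were chosen with earlier results of these data known.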

Additional observations from a re-analysis of the deposited data

Results flagged for a closer look

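In groups of 4 libraries, a library was marked where its gap to the nearest other exceeded Dixon's limit. This happened in 12 of 49 groups. Chance marks about 1 in 20 groups of continuous values, a figure that does not hold here, since a kind found in 1 of 4 libraries is always marked, as for 1 cell in LDP 8-week rat 7. For shares of the library these were 28.3% unnamed cells in LDP 8-week rat 6, the low 4.76% of endothelial-like cells in CON 2-week rat 3 (where 296 cells with at least 2 of 4 endothelial genes carried the IVD name and were not clustered, and which was not low by that rule over all cells, at 6.66%), 0.0594% erythroid-like cells in CON 2-week rat 1, and 3.14% B-lineage-like cells in CON 8-week rat 6. B-lineage-like cells were also marked at 0.00987% in LDP 8-week rat 7 and at 0.857% in CON 2-week rat 1. Granulocyte-like cells were marked at 1.72% in CON 8-week rat 5, at 2.50% in LDP 8-week rat 7 and at 0.136% in CON 2-week rat 1, and monocyte-like cells at 0.722% in CON 8-week rat 5. In the endothelial-like cells of CON 8 weeks, Cdh5 was marked for 843 CPM in rat 8, because the other 3 rats lay within a few CPM of each other, and AABR07028488.1 for 31.7 CPM in rat 7.

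Of the 22657 cells of the IVD class, 75 (0.331%) had UMIs of at least 5 pericyte genes, 28 (0.124%) of at least 5 smooth muscle genes and 20 (0.0883%) of at least 5 Schwann genes. These cells were deeper, disc cells make several of the pericyte genes, and no background share was measured. The counts are therefore not read as cells of another kind.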

How the results depend on the processing

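Of 361 values computed under alternatives, 300 were marked as the same. For share differences and single genes this meant the same direction and the same side of the threshold. Counts of genes were marked by their ratio to the main count. The endothelial-like share of the unnamed cells was marked by its SD over rats (28.0), a wide limit. Leaving out rats 1 to 4 could not change a log2 difference between CON and LDP at 8 weeks. The endothelial-like share of the unnamed cells was 63.6% to 65.9% under other clusterings, without cells under 1000 UMIs and without high doublet scores (settings partly added after seeing the data), and 55.9% to 72.3% without 1 rat. The difference in unnamed cells between CON and LDP at 8 weeks ranged from -6.04 to 3.59 points without 1 rat, reversing without rat 6. That of B-lineage-like cells ranged from -0.00329 to 1.05 points against LDP and from -0.218 to 0.828 against CON 2 weeks, reversing without CON 8-week rat 6, and that of granulocyte-like cells against LDP from -0.938 to 0.345, reversing without rat 7. The endothelial-like share against CON 2 weeks ranged from -4.90 to -3.51 points and its unadjusted p rose to 0.0571 without any 1 CON 8-week library, with the groups still apart, and was 0.0286 without any 1 CON 2-week library (0.143 adjusted in full). Against LDP 8 weeks, genes higher in CON numbered 0 to 2 without 1 rat. Against CON 2 weeks, without 1 library, higher genes numbered 2 to 15 and lower genes 1 to 13. Without the filter on low values 3 were higher, and by edgeR 20 were higher and 7 lower. The cause was not tested, beyond the smaller number of samples and the larger number of genes tested. With the replicate block, the share differences between CON and LDP had p = 0.875 for unnamed cells and 0.125 for endothelial-like cells (exact sign flips), and without the block in the gene test 0 genes passed. The block changed no call. Depth limits the rare kinds: 1 to 5 cells of a kind in a library allow no level.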
